A study of Sus scrofa with 12 samples.

Results

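The transforming growth factor beta (TGF beta) ligands, receptors and SMADs were followed in ovaries of 12 sows on day 30 of pregnancy. The 10 genes asked for were TGFB1, TGFB2, TGFB3, TGFBR1, TGFBR2, TGFBR3, SMAD2, SMAD3, SMAD4 and SMAD7. Probe sets were taken where the array annotation gave 1 of these symbols and no other, which found 14 of the 24123 probe sets of the array, for 7 of the 10 genes. The other genes, TGFBR2, SMAD2 and SMAD7, had no probe set under that rule and were not analysed here. The sows were F2 animals of an Iberian x Meishan cross, 6 of high prolificacy (the higher EBV, the estimated breeding value) and 6 of low prolificacy (the lower EBV). They are called high and low sows below, each has 1 porcine Affymetrix array, and the study's design text gives its sample as an average over both ovaries. The labels name no treatment of the sows. The comparison asks whether ovarian transcript levels differ between sows of high and low prolificacy.

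TGF beta ligands are secreted in a latent form, held by their propeptide, and act once released. The active dimer binds the type II receptor TGFBR2, which phosphorylates the type I receptor TGFBR1, and that kinase phosphorylates SMAD2 and SMAD3. These join SMAD4 and enter the nucleus, while SMAD7 blocks the receptor. In the ovary the ligands are known from granulosa, theca, luteal and vascular cells, and the corpus luteum of pregnancy, the progesterone source of the pregnant sow, holds most of these cell types together.

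The deposited values are log2 expression levels after GCRMA, by which the authors corrected background and normalized the arrays. A probe set was tested where it lay above 4 in at least 6 sows, and 7 of the 14 probe sets passed, for TGFB1 (2 probe sets), TGFB2, TGFB3, TGFBR1, SMAD3 and SMAD4. Levels of different probe sets depend on their probes and were not set against each other. The arrays had medians from 4.81 to 4.97. Over the tested probe sets, high 3 and high 2 had the lowest mean rank correlation with the other sows, 0.937 and 0.943, where the other 10 sows lay between 0.952 and 0.966. The 3' minus 5' difference of the actin control, a sign of RNA integrity, averaged 2.59 ± 0.45 (SD) in high sows, against 2.12 ± 0.13 in low sows, with 3.23 in high 2 as the highest.

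Luteal markers were all measured, 6 of 6, as were 4 of 7 granulosa, 5 of 6 endothelial, 4 of 6 smooth muscle, 3 of 6 fibroblast and 3 of 5 macrophage markers. Of the T cell markers 0 of 4 and of the platelet markers 0 of 3 (2 had a probe set) passed the level of 4 in 6 sows. In whole ovary, fewer cells of a type and less RNA per cell cannot be told apart.

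No TGF beta gene passed the test between the groups in either direction. With limma and Benjamini-Hochberg adjustment over 13390 probe sets, 0 of the 7 probe sets passed an adjusted p of 0.05, as was so of 0 of all probe sets (0%). At an unadjusted p under 0.05 there were 0 of the 7, and 755 of all (5.64%). The count at an adjusted p of 0.05 stayed at 0 with limma's variances moderated with a trend and robustly, and with arrays weighted. With array weights TGFB1 in Ssc.76.1.S1_a_at had an unadjusted p of 0.0401 (limma adjusted p = 0.744). The difference was above 0, higher in high sows, in 4 of the 7, where 47.6% of all probe sets were, and in 5 of the 7 with quantile normalization or median centring, which turned the sign of TGFB1 in Ssc.76.3.S1_a_at. Groups overlapped in each of the 7, and 0.471% of all probe sets had groups that did not overlap. The median difference was 0.0055 on the log2 scale, against -0.010 over all probe sets tested.

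**Figure D1:**
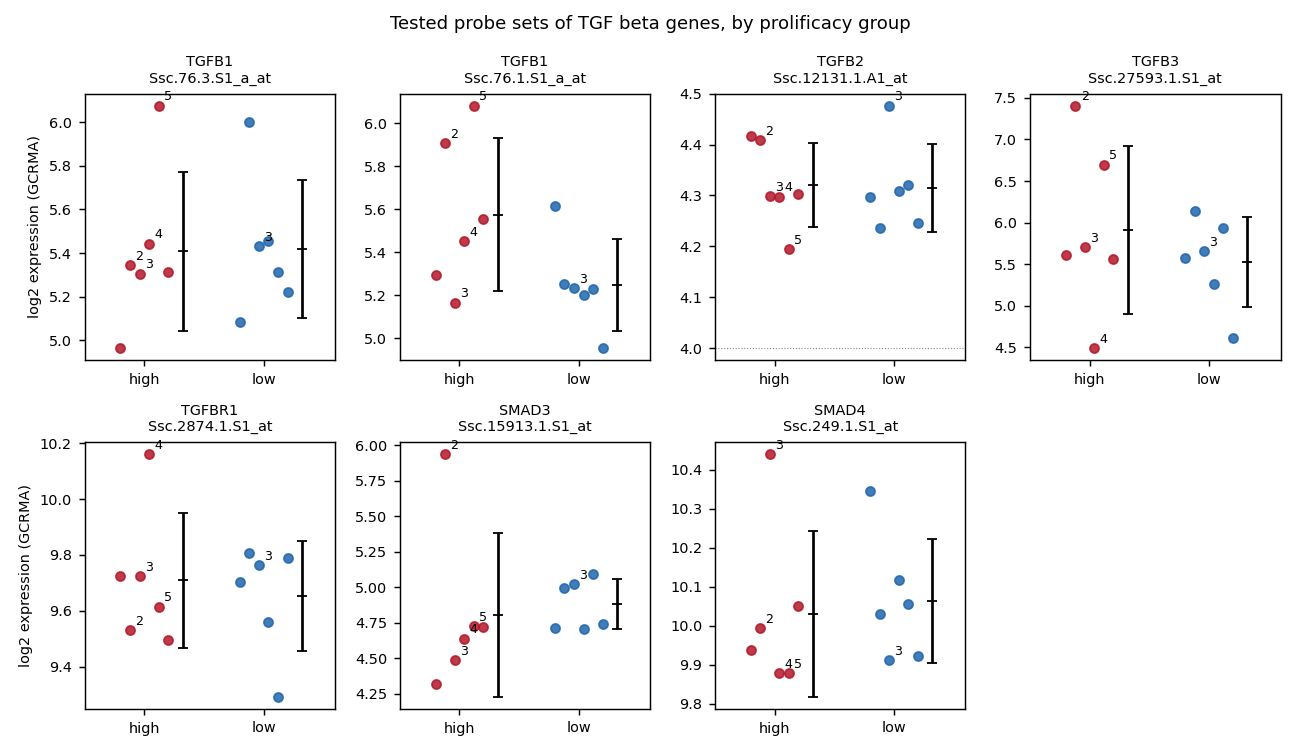
Log2 expression (GCRMA) of the 7 tested probe sets, with 1 point a sow, high prolificacy in red at left and low prolificacy in blue at right. Bars give the mean and SD of 6 sows, numbers name single sows, and each panel has its own axis. High 2 stands apart in SMAD3 and is the highest sow in TGFB3, and the groups overlap in every panel.

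TGFB1, the ligand best known for driving fibrosis and restraining immune cells, was read by a pair of tested probe sets that did not give the same order of sows. In Ssc.76.1.S1_a_at the lowest, median and highest log2 values were 5.17, 5.50 and 6.08 in high sows, against 4.95, 5.23 and 5.62 in low sows. High 5 at 6.08 and high 2 at 5.91 lay above every low sow, and 5 of 6 high sows lay above the low mean. The means were 5.58 ± 0.35 and 5.25 ± 0.21 (SD, n = 6 each, high and low), a difference of 0.33 or 1.26-fold. Its limma 95% interval ran from -0.027 to 0.68, with an unadjusted p of 0.0673 and an adjusted p of 0.874. With the actin 3' difference as a covariate the difference was 0.14.

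The other TGFB1 probe set, Ssc.76.3.S1_a_at, ran from 4.96 over a median of 5.33 to 6.08 in high sows, against from 5.09 over 5.37 to 6.002 in low sows. High 5 was again the highest of its group, but low 2 stood at 6.002 here and at 5.25 in the first probe set. The difference was -0.0097 (limma 95% interval -0.42 to 0.40, adjusted p = 0.997). Across the 12 sows the pair correlated at r = 0.35 (permutation p = 0.262) and rho = 0.24 (p = 0.456). Without high 5 and low 2, the sows farthest from the median, r was -0.0090. It was -0.107 without high 5 alone and 0.538 without low 2 alone, so the agreement of the pair rests on high 5.

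TGFB3, the isoform known in mice for its part in palate closure, varied most among the tested probe sets of the family. Its values in Ssc.27593.1.S1_at were 5.60, 7.41, 5.70, 4.49, 6.70 and 5.56 in high 1 to high 6. The low prolificacy sows 1 to 6 had 5.58, 6.14, 5.66, 5.26, 5.93 and 4.61. The highest sow, high 2, lay 7.58-fold above the lowest, high 4, and both belong to the same group. The means were 5.91 ± 1.01 in high sows, against 5.53 ± 0.54 in low sows (SD, n = 6 each), a difference of 0.38 (limma 95% interval -0.54 to 1.30, adjusted p = 0.948). The interval leaves room for a 2.46-fold higher or 1.45-fold lower level in high sows. The spread within groups was 0.81, and 4.90% of all tested probe sets had a larger one. The difference was 0.083 without high 2, 0.667 without high 4, 0.225 without high 5 and 0.199 without low 6, and 0.12 with the actin 3' difference as a covariate. A further probe set of TGFB3, Ssc.6138.1.S1_at, lay between 1.962 and 1.9997 in all sows and was not tested.

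TGFB2, the isoform that needs the co-receptor TGFBR3 for high-affinity binding, was dim in all 4 of its probe sets. The tested one, Ssc.12131.1.A1_at, ran from 4.19 over a median of 4.30 to 4.42 in high sows, against from 4.24 over 4.30 to 4.48 in low sows. It hardly varied, with a spread within groups of 0.084, and 98.8% of tested probe sets had a larger one. The difference was 0.0055 (limma 95% interval -0.17 to 0.18, adjusted p = 0.996). GCRMA compresses differences this near the floor, so the narrow interval does not show that the transcript itself was even. In Ssc.92.1.S1_at, high 3 at 3.80 and low 3 at 3.87 stood above the other 10 sows, which lay between 2.95 and 3.22. In Ssc.10287.1.A1_at, high 3 at 2.98 stood above the others, which lay between 2.51 and 2.56. The fourth, Ssc.92.1.A1_at, lay between 2.04 and 2.08.

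TGFBR1, the type I receptor kinase also called ALK5, was well measured by Ssc.2874.1.S1_at. Values ran from 9.50 over a median of 9.67 to 10.16 in high sows, against from 9.29 over 9.73 to 9.81 in low sows. High 4 at 10.16 was the highest and low 5 at 9.29 the lowest sow. The means were 9.71 ± 0.24 and 9.65 ± 0.20 (SD, n = 6 each, high and low), a difference of 0.056 (limma 95% interval -0.23 to 0.34, adjusted p = 0.986). The interval leaves room for at most a 1.27-fold higher or 1.17-fold lower level in high sows. The difference was -0.035 without high 4 and -0.016 without low 5. A dimmer probe set, Ssc.23794.1.S1_at, passed 4 in 2 sows only, high 4 at 4.07 and low 2 at 4.12. It averaged 3.67 ± 0.26 in high sows, against 3.82 ± 0.21 in low sows, and correlated with the bright one at r = 0.66 over the 12 sows. The third, Ssc.23794.1.A1_at, lay between 2.03 and 2.09.

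TGFBR3, or betaglycan, presents TGF beta ligands to their receptors and is also the co-receptor of inhibin. Its probe set Ssc.4253.1.S1_at passed 4 in 3 sows and was not tested. Values were 3.77, 3.73, 5.03, 3.06, 3.43 and 3.78 in high 1 to high 6, and 4.04, 3.76, 3.61, 4.20, 3.95 and 3.73 in low 1 to low 6. High 3 stood highest and high 4 lowest, so the range of the high group enclosed that of the low group.

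**Figure D2:**
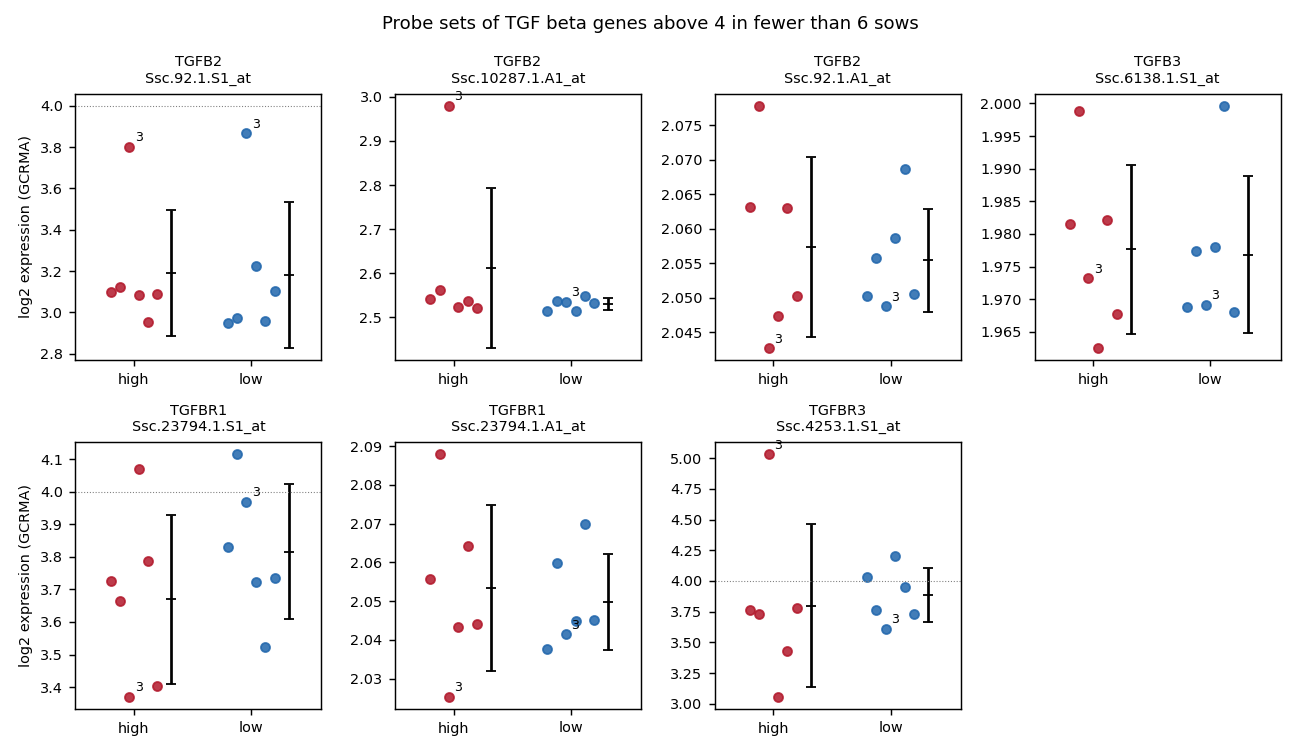
Log2 expression (GCRMA) of the 7 probe sets that lay above 4 in fewer than 6 sows, with 1 point a sow, high prolificacy in red at left and low prolificacy in blue at right. Bars give the mean and SD of 6 sows, the dotted line marks 4, sow 3 of each group is numbered, and each panel has its own axis. High 3 is the highest of its group in TGFBR3 and in 2 TGFB2 probe sets, in 1 of which low 3 lies above it, while 3 panels span under 0.1 in all.

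SMAD3, which carries the signal of the receptor to DNA, gave 1 value far from the rest. Its probe set Ssc.15913.1.S1_at read 4.32, 5.94, 4.48, 4.64, 4.73 and 4.72 in high 1 to high 6. In low 1 to low 6 it read 4.71, 4.996, 5.02, 4.71, 5.09 and 4.74. Apart from high 2 at 5.94, all high sows lay below the low mean. The means were 4.80 ± 0.58 in high sows, against 4.88 ± 0.18 in low sows (SD, n = 6 each), a difference of -0.075 (limma 95% interval -0.57 to 0.42, adjusted p = 0.989). Without high 2 the difference was -0.301 (unadjusted p = 0.0232, limma adjusted p = 0.884). With the actin 3' difference as a covariate it was -0.506 (limma unadjusted p = 0.0370, adjusted p = 0.280). SMAD3 was then the 1 of 7 TGF beta probe sets (14.3%) with an unadjusted p under 0.05, where 16.3% of all probe sets had one. High 2 held the highest actin 3' difference, while high 4, with an actin 3' difference of 2.98, read 4.64 in SMAD3. A link of the 2 measures was not tested. The SMAD3 difference between groups was 0.022 without high 1.

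SMAD4, the common partner of the receptor-activated SMADs, was bright and even. Ssc.249.1.S1_at ran from 9.88 over a median of 9.97 to 10.44 in high sows, against from 9.91 over 10.04 to 10.35 in low sows. High 3 at 10.44 and low 1 at 10.35 were the 2 highest sows, 1 in each group. The means were 10.03 ± 0.21 and 10.06 ± 0.16 (SD, n = 6 each, high and low), a difference of -0.034 (limma 95% interval -0.29 to 0.22, adjusted p = 0.990). The interval leaves room for at most a 1.16-fold higher or 1.22-fold lower level in high sows. The sign of so small a difference was not settled, as it was 0.022 without low 1 and 0.094 with the actin 3' difference as a covariate.

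Other genes of the pathway were read from a list of 57 symbols, of which 23 had a probe set and 20 were tested, each by its brightest probe set. With limma 0 of the 20 passed an adjusted p of 0.05 and 0 reached an unadjusted p under 0.05. The difference was above 0 in 14 of 20, where 47.6% of all probe sets were, and in 8 of 20 without high 2 and high 3. The median difference was 0.069. With the actin 3' difference as a covariate 5 of the 20 (25%) reached an unadjusted p under 0.05 with limma, where 16.3% of all probe sets did. None of all probe sets then passed an adjusted p of 0.05. Among the 5 were THBS1, BGN, BAMBI and CDKN1A, of the 16 genes named below. Those 16 were picked by smallest p without the covariate, so their own count is not set against the share of all probe sets.

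**Figure D3:**
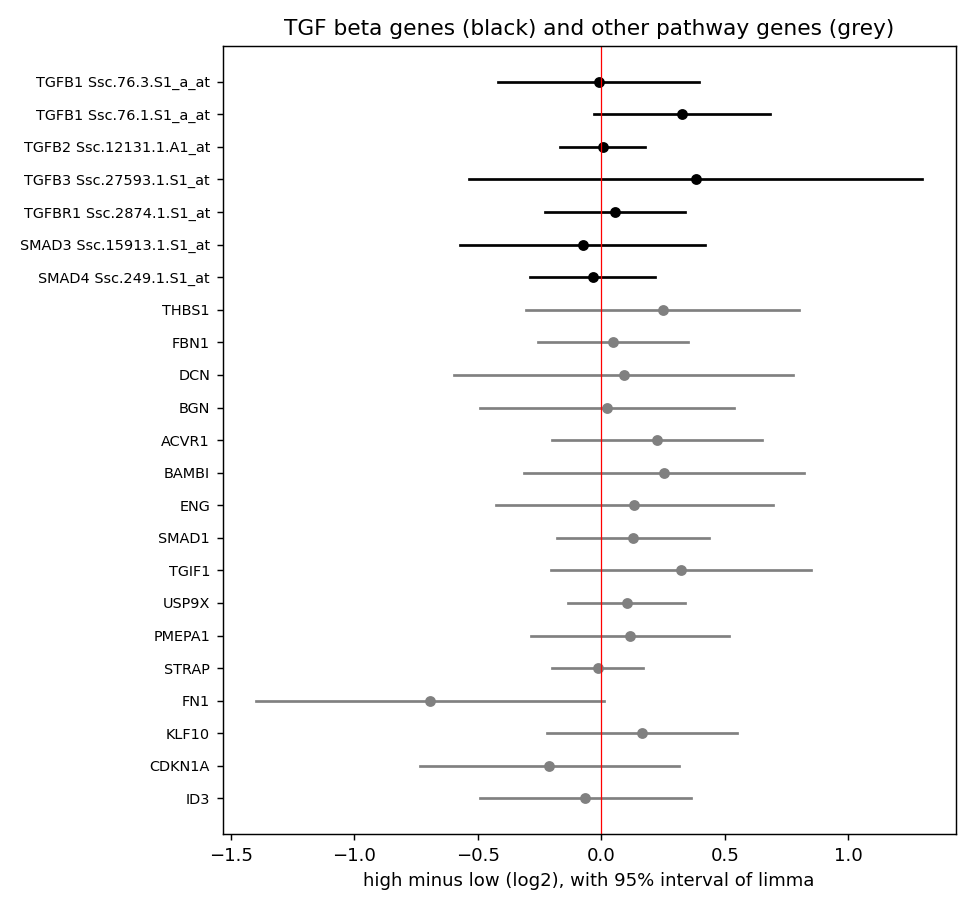
High minus low difference on the log2 scale with the limma 95% interval, for the 7 tested TGF beta probe sets in black and the 16 named pathway genes in grey. The red line marks 0, all intervals cross it, and that of FN1 reaches from -1.40 to 0.0099.

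Of genes that store or release the ligands, 5 of 5 tested were above 0, where 47.6% of all probe sets were, and none passed the test. The smallest of these differences was 0.012. THBS1, thrombospondin 1, which can release latent TGF beta, stood at 12.56 ± 0.54 in high sows, against 12.31 ± 0.41 in low sows, a difference of 0.25 (limma 95% interval -0.30 to 0.80, adjusted p = 0.944). It was 0.135 without high 1, 0.136 without low 2 and 0.444 without high 4. Its other probe sets gave 0.25 and -0.023. FBN1, the fibrillin that anchors latent complexes, gave differences of 0.048 and -0.24 in its 2 probe sets. The proteoglycans DCN and BGN, which bind the ligands, differed by 0.091 and 0.022. Without high 2 and high 3 the brightest probe sets of FBN1, DCN and BGN differed by -0.035, -0.100 and -0.057. With the actin 3' difference as a covariate they differed by -0.195, 0.448 and 0.512, and THBS1 by 0.657. Among receptors, 3 of 3 tested were above 0, where 47.6% of all probe sets were. The type I receptor ACVR1 of the family differed by 0.23, the decoy receptor BAMBI by 0.25 and the endothelial co-receptor ENG by 0.13. ACVR1 differed by 0.327, BAMBI by 0.662 and ENG by -0.133 with the actin 3' difference as a covariate. Without high 2 and high 3 ACVR1 differed by 0.097 and BAMBI by 0.402. SMAD1, of the BMP branch and the only one of its group tested, differed by 0.13.

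Of 5 tested regulators of the SMADs, 3 were above 0, where 47.6% of all probe sets were. The corepressor TGIF1 stood at 9.38 ± 0.54 in high sows, against 9.06 ± 0.35 in low sows, a difference of 0.32 (limma adjusted p = 0.927), and 0.14 in its other probe set. The difference was 0.193 without high 2, 0.046 without high 2 and high 3, and 0.026 with array weights. USP9X, which removes ubiquitin from SMAD4, differed by 0.10 and -0.065 in its probe sets, and STRAP, which binds SMAD7 and the receptors, by -0.015. PMEPA1, a TGF beta-induced inhibitor, gave 0.12 in its brightest probe set and 0.39, -0.13 and -0.24 in the others, so that its direction is not settled by the array.

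Genes known to respond to TGF beta were below 0 in 4 of 6 tested and above 0 in 2, where 47.6% of all probe sets were above 0. FN1, fibronectin, had the widest difference of the list. Its values ran from 8.93 over a median of 9.86 to 10.52 in high sows, against from 9.71 over 10.74 to 11.38 in low sows, and all 6 high sows lay below the low mean. The means were 9.88 ± 0.60 and 10.57 ± 0.64 (SD, n = 6 each, high and low), a difference of -0.69 (limma unadjusted p = 0.0529, adjusted p = 0.874). With 1 sow left out FN1 differed by -0.865, without low 2, to -0.504, without high 4. With the actin 3' difference as a covariate it differed by -0.745 (limma adjusted p = 0.402). Fibronectin is also a plasma protein made by liver. Albumin, ALB, lay above 4 in 1 of 6 high and 3 of 6 low prolificacy sows, namely high 5, low 1, low 3 and low 4. Of the 4 liver markers APOA1 was tested, and ALB, FGB and TTR did not pass the level filter. In those 4 sows FN1 was 10.52, 10.73, 10.74 and 11.38, against 10.94 in low 5, where ALB was 2.16, and 8.93 to 10.45 in the other 7 sows. Their part in the FN1 difference was not tested. KLF10, an early TGF beta response gene, differed by 0.17, the cell cycle inhibitor CDKN1A by -0.21 and ID3 by -0.064. KLF10 differed by -0.091, ID3 by 0.285 and CDKN1A by -0.672 (limma adjusted p of CDKN1A 0.219) with the actin 3' difference as a covariate. With 1 sow left out CDKN1A differed by -0.346, without high 2, to -0.087, without low 2. Plasminogen, PLG, which can free latent ligand, was not tested and averaged 1.92 ± 0.028 in high sows, against 3.57 ± 2.55 in low sows. Its highest value in any sow was 7.24, so the low mean hides a wide spread among sows.

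No pair of TGF beta genes passed a test of varying together across sows. Over 15 pairs of the 6 tested genes, each by its brightest probe set, 0 passed an adjusted p of 0.05 in a permutation test (100000 permutations, two-sided). The pair of lowest p was TGFB3 with SMAD3, at r = 0.66 (permutation p = 0.0260, adjusted p = 0.383) and rho = 0.52 (p = 0.0847, adjusted p = 0.691). It was 0.72 within the high group (exact p = 0.113) and 0.71 within the low group (exact p = 0.117, n = 6 each). Without high 1 and high 2, the sows farthest from the median of SMAD3, r was 0.33, and without high 2 alone it was 0.246.

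Scores of cell type markers were each the mean log2 deviation of a list's tested genes from their mean over sows. Genes were not scaled, so those that vary most weigh most. In the macrophage score the SDs in high and low sows were 1.06 and 0.63 for CD163, 0.34 and 0.44 for AIF1, and 0.19 and 0.17 for CD14. In the granulosa score they were 3.66 and 2.12 for CYP19A3, 2.79 and 1.64 for INHA, 1.01 and 0.78 for FST, and 0.32 and 0.30 for INHBA. The scores were set against the 6 genes in 36 relations. None passed an adjusted p of 0.05 in the permutation test, and 5 had an unadjusted p under 0.05. The brightest probe set of TGFB1 was Ssc.76.3.S1_a_at, at means of 5.41 in high and 5.42 in low sows. Its lead was slight, as Ssc.76.1.S1_a_at had means of 5.58 and 5.25. In the former TGFB1 followed the endothelial score at r = 0.72 (permutation p = 0.00909, adjusted p = 0.164) and rho = 0.70 (p = 0.0137, adjusted p = 0.311). Within groups r was 0.83 in high (exact p = 0.0389) and 0.72 in low prolificacy sows (exact p = 0.114, n = 6 each). Without high 3 and high 5 it was 0.62, and without high 5 alone 0.496. The other TGFB1 probe set gave r = 0.71, and 0.93 and 0.28 within the high and low groups. High 5, the sow with the highest TGFB1 in both probe sets, also had the highest endothelial score, 0.69.

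TGFB3 followed the macrophage score at r = 0.71 (permutation p = 0.00798, adjusted p = 0.164) and rho = 0.56 (p = 0.0644, adjusted p = 0.476). Within groups r was 0.84 in high (exact p = 0.0625) and 0.46 in low prolificacy sows (exact p = 0.358, n = 6 each), and without high 5 and low 6 it was 0.57. With the endothelial score TGFB3 gave r = 0.47 (permutation p = 0.122, adjusted p = 0.415), 0.43 within the high and 0.97 within the low group. The macrophage score was 0.49 in high 2 and 0.59 in high 5, the sows of highest TGFB3. TGFBR1 ran against the same score at r = -0.63 (permutation p = 0.0250, adjusted p = 0.300) and rho = -0.69 (p = 0.0173, adjusted p = 0.311), and at -0.66 without high 5 and low 6. Within groups it was -0.67 in high sows, against -0.62 in low sows. SMAD4 with the fibroblast score gave r = 0.61 (permutation p = 0.0336, adjusted p = 0.303) and rho = 0.48, but 0.21 without high 3 and low 4, so that it rests on those sows. It was 0.86 within the high and 0.32 within the low group. SMAD3 ran against the granulosa score at r = -0.58 (permutation p = 0.0432, adjusted p = 0.311) and rho = -0.48, and at -0.87 without high 4 and low 6. That relation was -0.57 within the high and -0.89 within the low group.

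**Figure D4:**
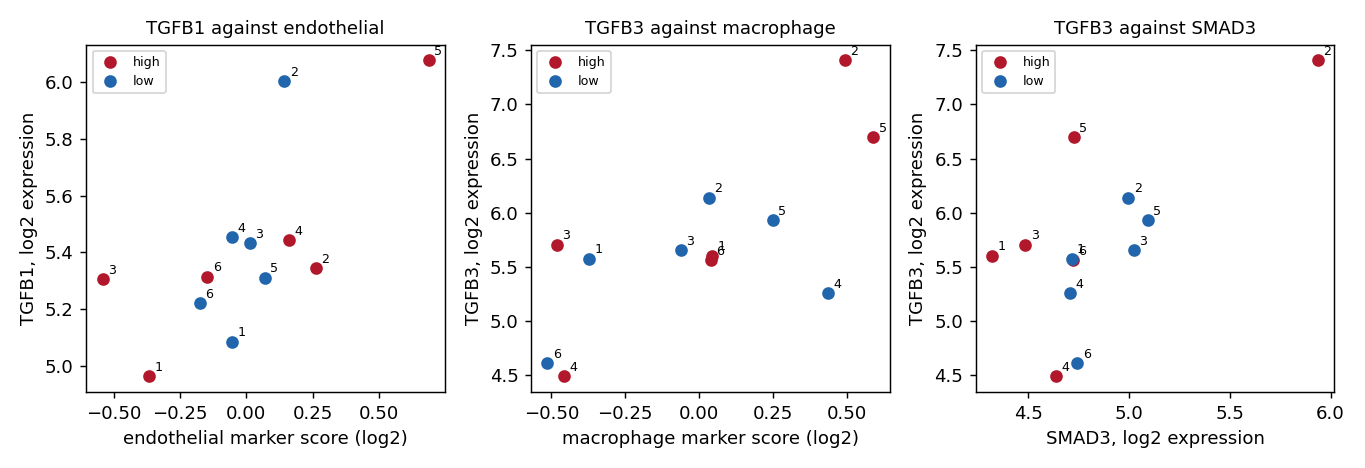
TGFB1 against the endothelial score, TGFB3 against the macrophage score and TGFB3 against SMAD3, all on the log2 scale, with 1 numbered point a sow, high prolificacy in red and low prolificacy in blue. High 5 lies at the upper right of the first panel and high 2 alone at the upper right of the third, where r is 0.33 once high 1 and high 2 are left out.

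The genes most like the 3 most variable probe sets were sought by Pearson's r over the 12 sows among 6656 tested probe sets with 1 symbol, as a description. For TGFB3 they were SMARCA5, a chromatin remodeller, at 0.92, ECSCR, an endothelial cell surface protein, at 0.91, and MAP4K4, a kinase, at 0.88. Without high 2 these were 0.85, 0.94 and 0.78. For SMAD3 they were IFRD1, PIM3, a serine/threonine kinase, and RBM18, from 0.92 to 0.93, and from 0.72 to 0.74 without high 2. For TGFB1 in Ssc.76.1.S1_a_at they were SMAGP, B4GALT5 and CIPC, from 0.87 to 0.90, and from 0.81 to 0.85 without high 5.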

How the data were processed

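Ovary RNA of 12 sows, 6 a group, was measured on 1 Affymetrix array each. The authors processed the arrays with GCOS and GCRMA, per the submitters' processing notes, with versions and settings not given in the sources used here, and the deposited values were taken as log2 from their range of 0.97 to 15.34. Symbols came from the array annotation: 10099 probe sets had 1, 198 several and 13826 none, and an update by Entrez ID changed 0. The 124 control probe sets were left out. In a block of 62 of them the names were displaced by 21 places, which was undone for the actin 3' difference.

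Probe sets above 4 in at least 6 sows were tested by limma 3.58.1 (lmFit, eBayes; R 4.3.3), with Benjamini-Hochberg adjustment over 13390 and no covariate. The limma fit was run on simulated data, independent normal values with known differences, as a check that it returned the mean differences put in. Differences are high minus low. Animals carry the numbers 1 to 6 in both groups, and the labels give neither pairs nor batches. Same-numbered sows deviated together at r from -0.455 to 0.168, so the groups were treated as unpaired. The genes, lists and tests were chosen with earlier results of these data known. Named pathway genes are up to 4 of each list by smallest p. Alternatives were other filters, scalings, moderation and weights, the animal number as a block, an actin covariate and leaving out sows. Leaving out high 2 and high 3 in the correlations was added after seeing the data. No sequences are shown.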

Additional observations from a re-analysis of the deposited data

Results flagged for a closer look

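In 9 of 28 groups of 6 sows, 14 probe sets in each of 2 prolificacy groups, 1 sow stood apart from the others. Its gap took up more of the group's range than Dixon's 95% critical value allows. That held in 4 of 14 groups of tested and 5 of 14 groups of untested probe sets. The value's nominal rate of about 1 in 20 groups holds for independent normal values. The share over all probe sets of the array is not given here, so the count does not set TGF beta genes apart from other genes. The groups share sows and probe sets of the same gene, so they are not independent. Among tested probe sets these were SMAD3 in high 2 (5.94), SMAD4 in high 3 (10.44), TGFBR1 in high 4 (10.16) and TGFB2 (Ssc.12131.1.A1_at) in low 3 (4.48), each the highest of its group. Among probe sets not tested, high 3 was the highest of its group in TGFBR3 (5.03) and in the TGFB2 probe sets Ssc.92.1.S1_at (3.80) and Ssc.10287.1.A1_at (2.98). Low 3 was so in the first of these TGFB2 probe sets (3.87), and low 5 in the dim TGFB3 probe set (1.9997), whose whole range over the 12 sows was 0.037.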

How the results depend on the processing

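Of 142 recomputed differences of the 7 TGF beta probe sets, 0 passed a limma adjusted p of 0.05 (lowest 0.280), 121 kept their sign and 21 turned. Of 336 for the 16 named pathway genes, 0 passed (lowest 0.219) and 27 turned. With the actin 3' difference as a covariate those that turned were SMAD4 at 0.094, TGFB2 at -0.0051, FBN1 at -0.195, ENG at -0.133, KLF10 at -0.091 and ID3 at 0.285. Without high 2 and high 3 those were TGFB1 (Ssc.76.3.S1_a_at, in all that follows) at 0.032, TGFB2 at -0.012, FBN1 at -0.035, DCN at -0.100, BGN at -0.057, USP9X at -0.013 and KLF10 at -0.010. With array weights those were TGFB1 at 0.068, TGFB2 at -0.023 and DCN at -0.113, with quantile normalization TGFB1 at 0.0036 and STRAP at 0.011, and with median centring TGFB1 at 0.0078 and STRAP at 0.0027. The cause was not tested. With 1 sow left out, differences ran from -0.301 to 0.022 for SMAD3, -0.116 to 0.022 for SMAD4, -0.143 to 0.107 for TGFB1, -0.014 to 0.038 for TGFB2 and -0.035 to 0.098 for TGFBR1. They ran from -0.136 to 0.130 for BGN, -0.093 to 0.255 for DCN, -0.025 to 0.308 for ENG, -0.054 to 0.145 for FBN1, -0.166 to 0.043 for ID3, -0.024 to 0.227 for PMEPA1 and -0.038 to 0.039 for STRAP.

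With 1 sow left out, 0 to 1 of all probe sets passed (the 1 without low 1, and no TGF beta gene), 3 to 5 of the 7 were higher in high prolificacy sows, and 11 to 16 of the 20 pathway genes. With a filter at 6, 1 TGF beta probe set was higher, since fewer were tested, and without high 2 and high 3, 8 pathway genes were. With the animal number as a replicate block 0 probe sets passed and 4 of the 7 were higher, and the block changed no call. The share of all probe sets above 0 was 47.6%, 49.6% with quantile normalization, 51.9% with median centring and 55.2% with no filter. All 6 correlations with an unadjusted p under 0.05 kept their sign under each alternative run. Signal near the floor limits TGFB2 and TGFBR3. SMAD3 was also dim, with medians of 4.68 in high and 4.87 in low sows. Of the tested TGF beta genes only TGFBR1 and SMAD4 passed the filter at 6.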
